A study of Mus musculus with 8 samples.

Results

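The bulk RNA-seq libraries of mouse kidney and small intestine were set against those of liver and lung, with 4 libraries on each side and all 8 libraries of the series in use. A gene was called separated when its lowest library on one side lay above its highest library on the other. Of the 52195 genes in the deposited table, 16328 had an FPKM (read fragments scaled by gene length and library size) of 1 or more in at least 2 libraries. Of these, 1021 (6.25%) were separated with kidney and small intestine on the high side, and 910 (5.57%) with liver and lung on the high side. These 1931 genes were chosen by their values in the same 8 libraries, so the difference between the sides is a description for them and carries no test. The tissues came from male mice of the inbred strain C57BL/6, written C57BL/6J in the methods of the study, at an age of 6 to 10 weeks. Each tissue has 2 libraries of polyadenylated RNA from separate mice. The 4 tissues were taken from each mouse, so libraries of different tissues share mice, and the labels do not say which.

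Kidney and small intestine share a lining that takes solutes out of a fluid. The proximal tubule of the kidney recovers sugars, amino acids, phosphate and small proteins from the filtrate, and the enterocyte takes up the products of digestion. Both cells carry a brush border, a carpet of microvilli with actin cores, membrane peptidases and sodium-coupled carriers on the face toward the fluid, while the sodium pump on the opposite face keeps up the gradient that drives the carriers. Liver and lung lack this kind of lining. Hepatocytes secrete plasma proteins and take up solutes from blood, and the lung holds surfactant-making alveolar cells, club cells and a dense capillary bed.

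The labels of the tissues were checked against their defining markers on the rescaled scale, on which each library's FPKM was divided by a median-of-ratios factor. The 5 proximal tubule markers summed to 2263 and 2919.8 in the kidney libraries and to at most 7.38 elsewhere. The 5 enterocyte markers summed to 5485 and 7208 in small intestine and to at most 98.3 elsewhere, the latter in liver. Hepatocyte markers summed to 84640.3 and 67102 in liver, 87.1 and 225 in kidney, 19.1 and 19.2 in small intestine and 55.2 and 31.7 in lung. The 5 alveolar type 2 markers summed to 9074 and 7521 in lung, but also to 409 and 741 in kidney, where Napsa made up most of the sum. The small intestine libraries also held the 8 pancreatic acinar transcripts at a sum of 2459 and 1189, against at most 4.78 in any other library, and the lung libraries held cardiac transcripts at a sum of 142 and 139.7. Between 9164152 and 21444618 reads per library lay on genes, and 3 reads on a gene of 1 kb correspond to 0.140 to 0.327 deposited FPKM, below which a value is not told from 0. In bulk tissue, fewer cells of a type and less RNA per cell cannot be told apart.

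Promoter sequences of 5 separated genes are shown because their genes differ between the sides and because each holds the core letters of a site known for factors of tubule, gut and liver epithelium. The searched letters were GTTAAT and the longer GTTAATNAT that includes it, which belong to the HNF1 site, CAAAGTCCA of the HNF4 site, TTTATNG of the CDX site and AACCNGTT of the grainyhead site, each on both strands. The sequences are those of RefSeq on GRCm38.p6, the 120 bases before the RefSeq start of the gene, 5′ to 3′ on the strand of the gene, with the match in capitals.
Guca2b, chr4:119658946-119659065, minus strand: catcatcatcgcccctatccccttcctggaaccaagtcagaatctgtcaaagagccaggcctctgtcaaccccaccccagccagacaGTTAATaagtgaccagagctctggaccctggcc
Cdhr2, chr13:54701343-54701462, plus strand: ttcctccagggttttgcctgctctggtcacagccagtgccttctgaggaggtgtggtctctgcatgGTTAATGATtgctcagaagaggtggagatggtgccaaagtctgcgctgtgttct
Treh, chr9:44673113-44673232, plus strand: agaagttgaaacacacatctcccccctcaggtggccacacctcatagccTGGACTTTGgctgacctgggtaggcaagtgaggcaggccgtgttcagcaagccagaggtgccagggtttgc
Slc3a1, chr17:85028227-85028346, plus strand: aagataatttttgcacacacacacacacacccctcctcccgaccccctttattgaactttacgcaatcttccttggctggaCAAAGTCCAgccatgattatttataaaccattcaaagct
Hc, chr2:35061413-35061532, minus strand: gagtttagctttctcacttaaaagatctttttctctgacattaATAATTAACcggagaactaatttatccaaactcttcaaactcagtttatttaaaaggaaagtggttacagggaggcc
The first 4 belong to genes higher in kidney and small intestine, and the last, with the same GTTAATNAT letters on the opposite strand, to a gene higher in liver and lung. The match in Treh is also on the opposite strand. The match begins 33 bases before the start in Guca2b, 54 in Cdhr2, 71 in Treh, 39 in Slc3a1 and 77 in Hc. The Slc3a1 stretch also holds TTTATNG, at position -73 from the start, left in lower case. Over the 13977 promoters of tested genes in the table, each of 300 bases, GTTAAT was in 5.39%, GTTAATNAT in 0.687%, CAAAGTCCA in 0.601%, TTTATNG in 7.43% and AACCNGTT in 1.86%. Entries were given for 721 of the 1021 genes (70.6%), under the 80% asked for, so a comparison of motif shares between gene sets is void. The matches are a description of letters, not of sites in use.

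Across all tested genes the sides were compared with limma on log2(rescaled FPKM + 1), as the mean of kidney and small intestine minus the mean of liver and lung. Calls asked for a difference of more than 1 on the log2 scale, in either direction, and for p under 0.05 after Benjamini-Hochberg adjustment. By this rule 1704 genes (10.4%) were higher in kidney and small intestine and 1482 (9.08%) were lower, with a median difference over all tested genes of -0.01. Higher genes were thus 53.5% of those called, a share that fell to 43.8% on FPKM as deposited and to 41.6% with libraries brought to the same sum without mitochondrially encoded genes. The spread in this fit is that between libraries of 1 tissue. When the difference between the tissues of a side was counted as spread, with the side as the only factor, 197 genes were higher and 126 lower. That fit takes the libraries of 1 tissue as independent, so it still understates the spread between tissues, here and in the lists below. Of the 1704 genes called higher 1076 were not separated. The libraries of a tissue repeated the separation in part. Of 1876 genes separated with kidney and small intestine high in the libraries numbered 1, 1172 (62.5%) were also separated in those numbered 2, where the share of all tested genes was 12.97%, and 21 went the other way. For liver and lung high the count was 1042 of 1976 (52.7%), beside 12.03% of all tested genes. On FPKM as deposited the shares were 56.3% and 67.8%, so that their order turned.

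The 12 genes with the widest gap between the sides, among those with at least 10 rescaled FPKM in all 4 libraries of the high side, were Spink1, Guca2b, Ggt1, Cgref1, Erich4, Slc6a19, Amn, Slc7a9, Mep1b, Dnase1, Lrrc19 and Vdr. The gap is the lowest high library minus the highest low library on the log2 scale, and it ran from 5.94 to 4.42 in these genes, whereas its median over all 1021 was 0.289. Spink1 (chromosome 18, 43728082 to 43737557), a secreted trypsin inhibitor, was at 575 and 1146 in kidney, 853 and 818 in small intestine, 6.09 and 8.41 in liver and 2.005 and 0.402 in lung rescaled FPKM. The small intestine libraries also held the acinar transcripts given above, and the part of acinar cells in the Spink1 level there was not tested. Guca2b (chromosome 4, 119656607 to 119658954) encodes uroguanylin, a peptide that acts on salt handling in gut and kidney, and was at 156 and 277 in kidney, 631 and 676 in small intestine, 1.82 and 1.95 in liver and 1.62 and 0.341 in lung. All 4 high libraries of both genes lay far above the low ones, which for Guca2b reached at most 1.95. Ggt1 (chromosome 10, 75561604 to 75586200), the enzyme that cleaves glutathione at the outer cell face, was at 209 and 277 in kidney, 121 and 118 in small intestine, 0.753 and 1.27 in liver and 0.959 and 0.385 in lung. Erich4 (chromosome 7, 25614620 to 25615892) was at 57.9 and 74.3 in kidney and 69.98 and 71.1 in small intestine and was listed at 0 in both lung libraries and at no more than 0.339 in liver.

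**Figure D1:**
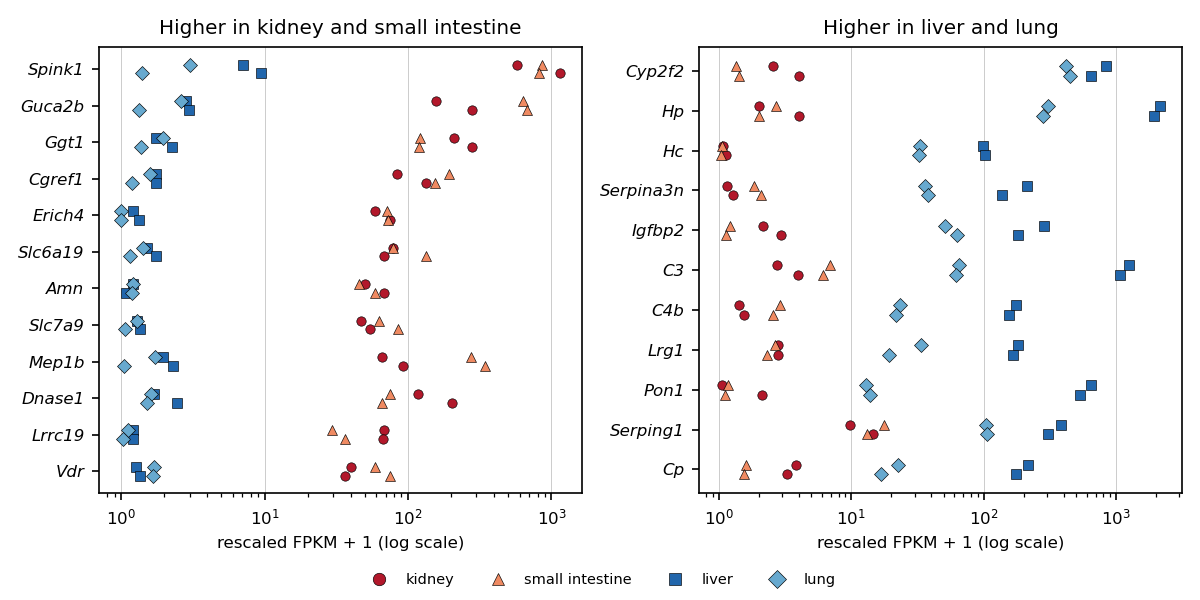
Rescaled FPKM plus 1 on a log axis in each of the 8 libraries, for separated genes with the widest gap in each direction, 12 on the left and 11 on the right, with the 2 libraries of a tissue as 2 points of 1 shape and colour. In the left panel all kidney and small intestine points lie at 28.5 rescaled FPKM or more and all liver and lung points at 8.41 or less.

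The carriers of neutral and cationic amino acids were among the clearest members. Of 15 tested genes for amino acid and peptide uptake, 13 were called higher in kidney and small intestine, none lower, and 9 were separated, with a median log2 difference of 3.21. Over all tested genes 10.4% were called higher and 6.25% separated in this direction. With the tissue difference counted as spread, 4 of the 15 were called higher. Slc6a19 (chromosome 13, 73679745 to 73704865), the main apical carrier of neutral amino acids, was at 78.2 and 67.2 in kidney, 77.7 and 132 in small intestine, 0.513 and 0.7401 in liver and 0.428 and 0.152 in lung. Slc7a9 (chromosome 7, 35448796 to 35466036) forms with Slc3a1 the apical exchanger of cystine and dibasic amino acids, and was at 46.1 and 53.1 in kidney, 62.3 and 84.6 in small intestine, 0.295 and 0.346 in liver and 0.295 and 0.0633 in lung. Liver and lung held at most 0.7401 of the first and 0.346 of the second. The kidney minus small intestine log2 difference was -0.48 (standard error 0.26, limma adjusted p = 0.183) for Slc6a19 and -0.54 (standard error 0.20, limma adjusted p = 0.0581) for Slc7a9, which did not pass the test. The partner Slc3a1 (chromosome 17, 85028376 to 85064236) was at 112 and 122 in kidney, 24.4 and 44.1 in small intestine, 12.4 and 11.04 in liver and 0.318 and 0.1102 in lung, so its gap of 0.92 was set by liver. The basolateral exchangers Slc7a7 and Slc7a8 had gaps of 2.86 and 3.44, with high-side levels of 31.5 and 37.2 in kidney and 39.3 and 51.01 in small intestine for Slc7a7 and 24.5 and 20.9 in kidney and 31.9 and 39.99 in small intestine for Slc7a8. Other carriers of the list belonged to 1 tissue: Slc15a1, the intestinal peptide carrier, was at 38.8 and 61.6 in small intestine and at most 0.197 in kidney, and Tmem27 (collectrin), the renal partner of Slc6a19, was at 710.4 and 1221 in kidney and at most 0.655 in small intestine.

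The sugar and monocarboxylate list was called higher as a whole, 11 of 11 tested genes with 6 separated and a median log2 difference of 3.19. Over all tested genes 10.4% were called higher and 6.25% separated in this direction. With the tissue difference counted as spread, 4 of the 11 were called higher. Slc5a1 (chromosome 5, 33104219 to 33162870), the sodium-glucose carrier SGLT1, was at 15.3 and 13.8 in kidney, 283 and 500.3 in small intestine, 1.59 and 1.47 in liver and 1.62 and 0.6401 in lung, so that it was separated although kidney held far less than small intestine. Its renal relative Slc5a2 (SGLT2) was not separated, with 114 and 107 in kidney and 0.167 and 0.0582 in small intestine, while liver reached 0.533. Closer together in kidney and small intestine were Slc5a9, at 6.43 and 4.93 in kidney and 6.21 and 8.16 in small intestine, and the fructose carrier Slc2a5, at 15.6 and 19.5 in kidney and 30.1 and 27.6 in small intestine, with a gap of 2.40 and 2.29. The inositol carrier Slc5a11 (chromosome 7, 123214780 to 123273253) was at 13.7 and 16.3 in kidney, 34.9 and 33.96 in small intestine, 0.287 and 0.224 in liver and 0.0818 and 0.0154 in lung. The lactate carrier Slc5a12 was at 64.8 and 43.8 in kidney and 12.01 and 32.6 in small intestine, against at most 0.625 on the other side. Slc2a2 (GLUT2), the basolateral glucose carrier, was called higher at 2.28 (standard error 0.12, limma adjusted p = 4.58e-06) but not separated, since liver at 52.7 and 48.9 lay within the range of small intestine at 47.8 and 58.6.

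Sodium and anion transport followed, with 11 of 13 genes called higher, 1 lower and 7 separated, beside 10.4%, 9.08% and 6.25% of all tested genes. Slc9a3 (chromosome 13, 74121457 to 74169442), the apical sodium-proton exchanger NHE3, was at 16.9 and 10.9 in kidney, 21.6 and 21.6 in small intestine, 0.0359 and 0.0561 in liver and 0.0102 and 0.0154 in lung. The sulfate carrier Slc13a1 was at 28.9 and 29.2 in kidney and 11.4 and 8.400 in small intestine and at most 0.1398 in liver and lung. Atp1b1, the beta subunit of the sodium pump, was separated at 496 and 525 in kidney, 186 and 292 in small intestine, 20.1 and 20.3 in liver and 48.7 and 30.5 in lung. Phosphate carriers did not follow the sides, as Slc34a1 was at 958 and 911 in kidney and at most 0.523 in small intestine. Slc34a2 was the gene called lower, at 133 and 116 in lung and 2.55 and 22.6 in small intestine, with a log2 difference of -1.84 (standard error 0.52, limma adjusted p = 0.0213). That call was lost without either library of kidney, liver or lung, at adjusted p between 0.0584 and 0.0867.

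The membrane hydrolases of the brush border were called higher in 20 of 21 cases, none lower, at a median log2 difference of 3.12, yet only 8 were separated. Over all tested genes 10.4% were called higher and 6.25% separated in this direction. With the tissue difference counted as spread, 4 of the 21 were called higher. Between the tissues of the side, 4 were called higher in kidney and 16 in small intestine. The meprin subunits, which form a secreted and membrane-bound metalloprotease, were both separated with opposite balance. Mep1b (chromosome 18, 21061923 to 21100199) was at 65.1 and 91.9 in kidney, 273 and 342 in small intestine, 0.951 and 1.28 in liver and 0.715 and 0.0556 in lung, higher in small intestine. Mep1a (chromosome 17, 43474324 to 43502812) was at 366 and 453 in kidney, 15.4 and 32.3 in small intestine, 0.801 and 1.12 in liver and 0.6698 and 0.135 in lung, higher in kidney, with kidney minus small intestine differences of -1.97 (standard error 0.28, limma adjusted p = 0.000895) for Mep1b and 4.13 (standard error 0.35, limma adjusted p = 5.30e-05) for Mep1a. Treh (chromosome 9, 44673233 to 44686305), the trehalase whose promoter is shown above, was at 33.99 and 44.2 in kidney, 213 and 173 in small intestine, 0.868 and 1.06 in liver and 0.275 and 0.0828 in lung. The dipeptidase Dpep1 was separated by a gap of 0.65, since lung held 30.8 and 29.04 against 48.8 and 59.1 in kidney and 77.4 and 111 in small intestine. Enzymes known for digestion alone were those of small intestine: sucrase-isomaltase (Sis) was at 197 and 330.1 there and at 0.0485 and 0.323 in kidney, and intestinal alkaline phosphatase (Alpi) at 579 and 453 and 0.0968 and 0.688. Such genes pass the side contrast through 1 tissue, and kidney lay within or below the range of liver and lung.

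The framework of the microvillus had the largest share of separated genes among the lists, 15 of 22 (68.2%), with 21 called higher, none lower and a median log2 difference of 3.49. Over all tested genes 6.25% were separated in this direction and 10.4% called higher. Vil1 (chromosome 1, 74409376 to 74435559), the actin bundler villin, was at 32.4 and 35.4 in kidney, 345 and 499 in small intestine, 0.946 and 1.48 in liver and 0.683 and 0.155 in lung. Ush1c (chromosome 7, 46195350 to 46238503), the scaffold of the links between microvillus tips, was at 16.1 and 18.7 in kidney, 37.02 and 37.7 in small intestine, 0.0513 and 0.1203 in liver and 0.04396 and 0.01101 in lung, and its binding partner Calml4 at 40.5 and 70.4 in kidney, 56.1 and 54.00 in small intestine, 1.36 and 0.593 in liver and 2.69 and 2.52 in lung. Cdhr2 (chromosome 13, 54701461 to 54736662), a cadherin of those links, was at 5.25 and 5.43 in kidney, 181 and 207 in small intestine, 0.335 and 0.449 in liver and 0.1502 and 0.0924 in lung. Kidney was far below small intestine for Cdhr2 but stayed above liver and lung. For Calml4 the kidney minus small intestine difference was -0.04 (standard error 0.29, limma adjusted p = 0.928). The scaffold Pdzd3 was at 41.7 and 50.95 in kidney and 20.2 and 22.4 in small intestine and at most 0.308 in liver and lung. Ezrin (Ezr), which ties actin to the membrane in many epithelia, was at 66.7 and 82.9 in kidney, 129.7 and 232 in small intestine, 1.68 and 2.35 in liver and 40.2 and 40.6 in lung, so the gap of 0.70 was set by lung. Myo1a, the myosin of the intestinal brush border, was not separated, with 163 and 224 in small intestine and 0.0731 and 0.325 in kidney. Of the 22 genes 16 were called higher in small intestine than in kidney and 3 higher in kidney, beside 15% and 13.6% of all tested genes. Tmigd1, one of these 3, differed between the small intestine libraries, at 1.88 and 19.2, and was at 113 and 197 in kidney.

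**Figure D2:**
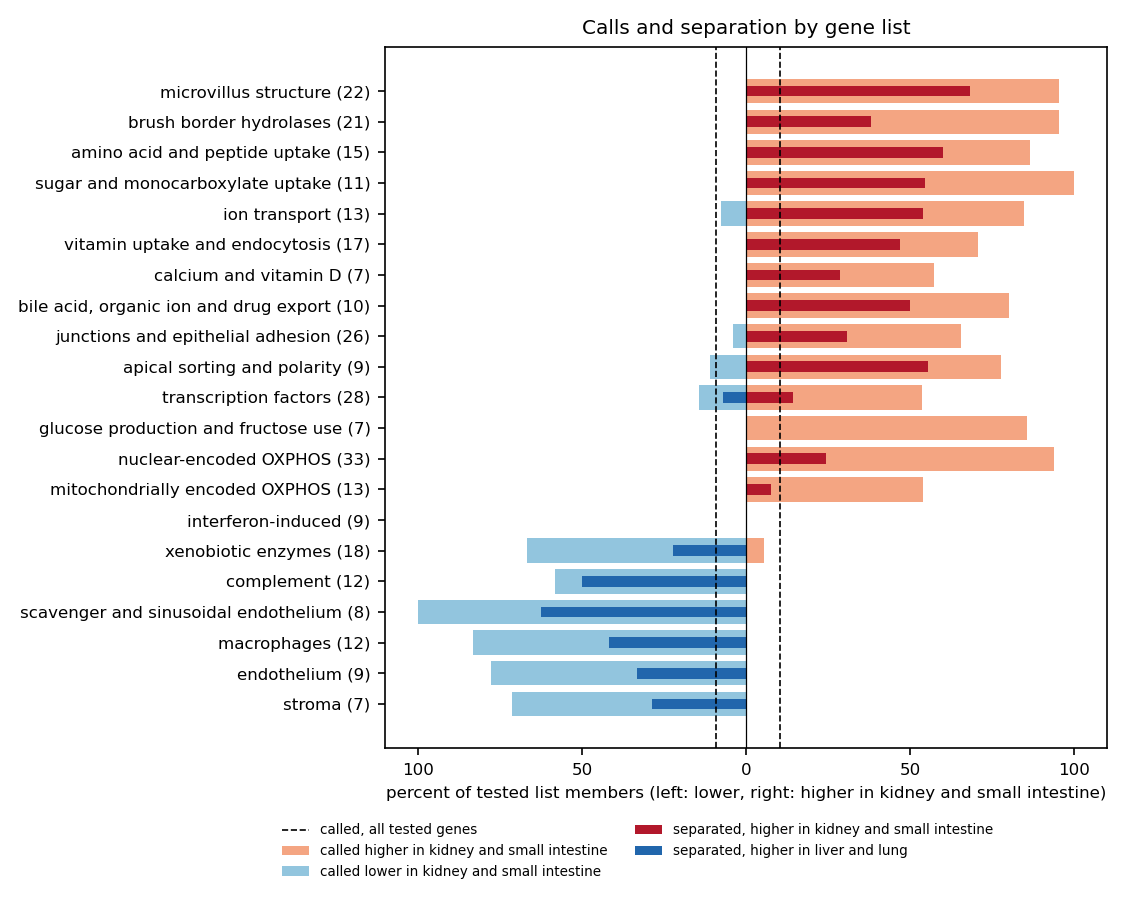
Percent of tested members of 21 gene lists called higher or lower in kidney and small intestine (pale bars) and separated in either direction (narrow dark bars), with the number tested in parentheses and the 10.4% and 9.08% of all tested genes as dashed lines. The 10 absorptive lists at the top extend to the right, and the complement, xenobiotic, macrophage and endothelial lists to the left.

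Uptake by endocytosis and of vitamins gave 12 of 17 genes called higher, none lower, and 8 separated. Over all tested genes 10.4% were called higher and 6.25% separated in this direction, shares that also stand beside the calcium list below. Amn (chromosome 12, 111271095 to 111276426), the membrane partner of cubilin in the receptor for vitamin B12 with intrinsic factor, was at 49.2 and 67.5 in kidney, 44.5 and 57.5 in small intestine, 0.214 and 0.0838 in liver and 0.214 and 0.184 in lung. Cubn (chromosome 2, 13276338 to 13491813), cubilin itself, was at 14.3 and 8.21 in kidney, 4.71 and 8.11 in small intestine, 0.0529 and 0.0517 in liver and 0.0302 and 0.0113 in lung, so both partners were near 0 in liver and lung. Megalin (Lrp2), the tubular partner of cubilin, was at 63.5 and 36.2 in kidney and at most 0.0454 in small intestine, and so was not separated. Of 7 tested genes of calcium and vitamin D handling 4 were called higher and 2 separated. Vdr (chromosome 15, 97854425 to 97910630), the vitamin D receptor, was at 38.8 and 35.4 in kidney, 57.8 and 74.1 in small intestine, 0.2797 and 0.355 in liver and 0.699 and 0.667 in lung. Its known target S100g, a calcium-binding protein, was at 362 and 598 in kidney, 328 and 102 in small intestine, 1.65 and 1.93 in liver and 53.7 and 47.8 in lung, with a wide spread between the small intestine libraries. Calb1, the larger renal calcium-binding protein, was at 73.2 and 64.03 in kidney and listed at 0 in 1 small intestine library.

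Among 10 genes for the export of bile acids, organic ions and drugs, 8 were called higher and 5 separated. Over all tested genes 10.4% were called higher, 9.08% lower and 6.25% separated toward kidney and small intestine. These shares also stand beside the lists that follow. Slc51a (chromosome 16, 32474504 to 32487879) and Slc51b (chromosome 9, 65412714 to 65422955) encode the basolateral bile acid and steroid exporter. Slc51a was at 34.5 and 45.4 in kidney, 82.8 and 123 in small intestine, 0.247 and 0.868 in liver and 0.317 and 0.0265 in lung and Slc51b at 6.38 and 11.4 in kidney, 23.7 and 39.1 in small intestine, 0 and 0.435 in liver and 0.239 and 0.299 in lung. Both subunits were higher in small intestine, with kidney minus small intestine differences of -1.33 (standard error 0.29, limma adjusted p = 0.00686) and -1.72 (standard error 0.33, limma adjusted p = 0.00390). The carnitine carriers Slc22a4 and Slc22a5 were at 16.7 and 14.8 in kidney and 6.82 and 10.9 in small intestine for Slc22a4 and 82.98 and 68.6 in kidney and 21.8 and 34.3 in small intestine for Slc22a5. The kidney excess passed the test in Slc22a5, at 1.43 (standard error 0.28, limma adjusted p = 0.00420), and stayed under the fold asked for in Slc22a4. Junction and adhesion genes were less uniform, with 17 of 26 called higher, 1 lower (Krt18) and 8 separated. Epcam (chromosome 17, 87635979 to 87651129), an adhesion protein of many epithelia, was at 38.8 and 48.97 in kidney, 496 and 688 in small intestine, 4.26 and 2.42 in liver and 21.04 and 17.2 in lung. Of 9 genes for apical sorting and polarity 7 were called higher, 1 lower (Mal2) and 5 separated, among them Llgl2 at 13.8 and 12.6 in kidney, 14.6 and 16.9 in small intestine, 5.06 and 5.23 in liver and 3.85 and 4.24 in lung. Over the 10 lists together 124 of 151 tested genes were called higher and 3 lower, and 73 (48.3%) were separated, none of them toward liver and lung, with a median log2 difference of 2.45. Most of the 151 differed between the tissues of their side. Of them 43 were called higher in kidney than in small intestine and 76 higher in small intestine. The same calls were made in 13.6% and 15% of all tested genes. With the tissue difference counted as spread, 34 of the 151 were called higher, 6 of them for the microvillus, 6 for ion transport, 5 for vitamins and endocytosis, 1 for sorting and none for junctions and adhesion.

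The separated genes were then compared within their own side, with a contrast that does not enter the rule, although the rule favours genes that are alike in both tissues. Kidney and small intestine differed by limma in 294 of the 1021 genes (28.8%), beside 28.6% of all tested genes, with 115 (11.3%) higher in kidney, beside 13.6%, and 179 (17.5%) in small intestine, beside 15%. The lower of the 2 tissues had at least 50% of the level of the higher one in 662 genes (64.8%), under 10% in 84 (8.23%) and under 1% in 8 (0.784%). Over all tested genes the latter shares were 15.6% and 7.05%. The median over the separated genes was 64.4%. The largest excess of kidney, at a level of 10 or more, was in Mep1a, Klk1, Oxct1 and 4833439L19Rik. Klk1 (chromosome 7, 44225360 to 44229618), tissue kallikrein, was at 1296 and 1250.4 in kidney, 89.01 and 61.2 in small intestine, 2.57 and 2.87 in liver and 2.304 and 0.826 in lung, a kidney minus small intestine difference of 4.09 (standard error 0.30, limma adjusted p = 2.72e-05). Oxct1, which activates ketone bodies for oxidation, was at 353 and 449.7 in kidney, 26.3 and 22.3 in small intestine, 2.99 and 5.297 in liver and 19.2 and 14.1 in lung, so lung lay close below small intestine. Among the largest excesses of small intestine were those of Ckmt1, Slc5a1 and Clec2h. Ckmt1 (chromosome 2, 121357714 to 121363737), a mitochondrial creatine kinase, was at 15.5 and 18.2 in kidney, 518 and 557 in small intestine, 1.82 and 0.9895 in liver and 4.61 and 2.94 in lung, a difference of -4.92 (standard error 0.24, limma adjusted p = 3.46e-06). Clec2h, a lectin-like surface protein, was at 14.3 and 18.96 in kidney, 294 and 482 in small intestine, 12.9 and 5.81 in liver and 0.4996 and 0.0782 in lung and entered by a gap of 0.14. The lowest library of the high side was a kidney library in 599 genes and a small intestine library in 422, and the highest library of the low side was liver in 574 and lung in 447.

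**Figure D3:**
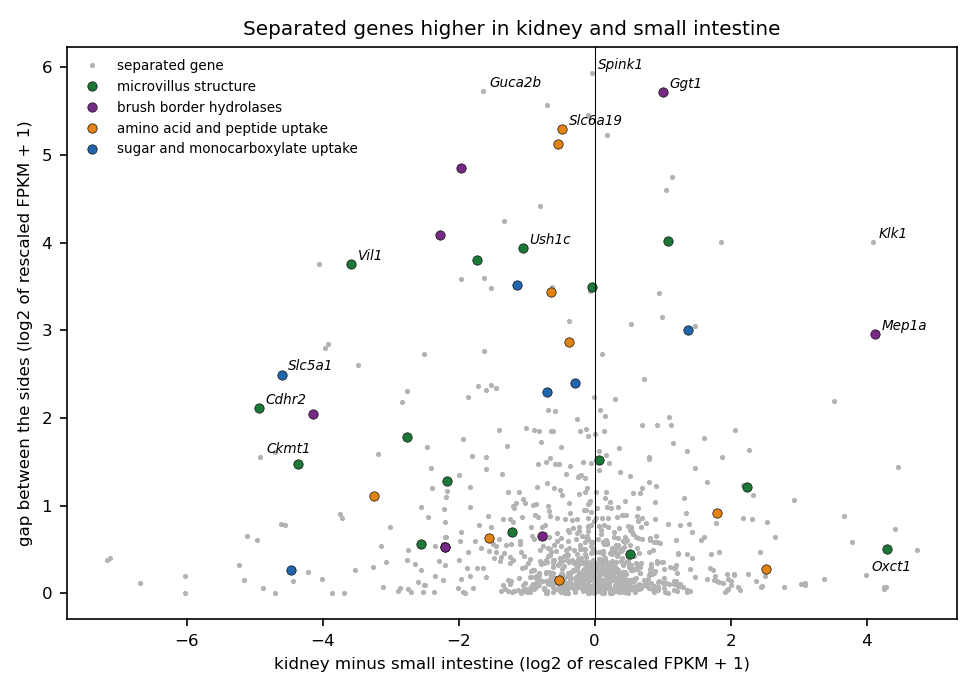
Each point is 1 of the 1021 separated genes higher in kidney and small intestine, with the kidney minus small intestine difference on the x axis and the gap between the sides on the y axis, both as log2 of rescaled FPKM plus 1, and 4 lists in colour. The median gap is 0.289, and the widest gaps are those of Spink1 (5.94), Guca2b (5.73) and Ggt1 (5.72).

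At the edge of the rule the gaps vanish. Just inside were Entpd7, Sprr2a3 and Dr1, whose gaps rounded to 0.00. Dr1 was at 9.33 and 9.27 in kidney, 7.01 and 9.91 in small intestine, 5.23 and 6.48 in liver and 6.57 and 7.005 in lung, and Sprr2a3 at 32.6 and 35.5 in small intestine and 0.157 and 0.558 in kidney, while lung reached 0.156. The Sprr2a3 values of kidney and lung lie at few reads, where their order is not resolved. Just outside were Gm37450, D14Ertd670e and Gm4714, which were listed at 0 in liver, in lung and in 1 of the 2 high-side tissues. In the other direction Gm5834, Ltbp4 and P2ry10b lay just inside and Wnt3a, Fam216b and Slurp2 just outside, these 3 at 0 in all kidney and small intestine libraries. A gap of at least 1, a factor of 2 on the scale of rescaled FPKM + 1, left 169 genes higher in kidney and small intestine and 119 higher in liver and lung, and a gap of at least 4 left 17 and 5.

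Of 28 tested transcription factors known for tubule, gut, liver or lung epithelium, 15 (53.6%) were called higher and 4 (14.3%) lower, beside 10.4% and 9.08% of all tested genes. With the tissue difference counted as spread, 2 were called higher and 1 lower. Separated were 4 (14.3%) with kidney and small intestine high and 2 (7.14%) with liver and lung high, beside 6.25% and 5.57%, the last pair close to each other. Hnf4g (chromosome 3, 3508030 to 3658052), an orphan nuclear receptor, was separated at 1.601 and 0.856 in kidney, 39.6 and 70.7 in small intestine, 0.0751 and 0.0587 in liver and 0.0643 and 0.0161 in lung, mostly an intestinal level. Pax8 (chromosome 2, 24420560 to 24475599), a paired-box factor of the kidney, was at 6.34 and 7.31 in kidney, 1.56 and 1.405 in small intestine, 0 and 0 in liver and 0 and 0 in lung and thus low but present in small intestine. Esrra (chromosome 19, 6910977 to 6921813), a nuclear receptor that acts on mitochondrial genes, was at 29.1 and 19.8 in kidney, 35.5 and 44.8 in small intestine, 5.84 and 7.66 in liver and 2.93 and 3.67 in lung, and Maf at 16.5 and 20.01 in kidney, 17.2 and 27.3 in small intestine, 5.99 and 4.402 in liver and 3.26 and 2.88 in lung. The kidney minus small intestine differences of Esrra, -0.71 (standard error 0.24, limma adjusted p = 0.0453), and Maf, -0.24 (standard error 0.25, limma adjusted p = 0.463), were under the fold asked for. Hnf4a, the best-known factor of these epithelia, was not separated: liver, at 111 and 96.1, exceeded kidney at 91.01 and 86.5 and small intestine at 53.2 and 75.7, and lung was at 0.421 and 0.184. On the other side stood the forkhead factors Foxa2 (chromosome 2, 148042877 to 148046969), at 0.0191 and 0.102 in kidney, 2.04 and 1.28 in small intestine, 12.1 and 10.7 in liver and 9.11 and 9.65 in lung, and Foxa1, at 0.163 and 0.0242 in kidney, 1.803 and 2.26 in small intestine, 3.74 and 2.97 in liver and 6.29 and 5.76 in lung. Cdx2 of the intestine, at 21.6 and 26.2, and Nkx2-1 of the lung, at 29.1 and 30.8, were factors of 1 tissue.

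**Figure D4:**
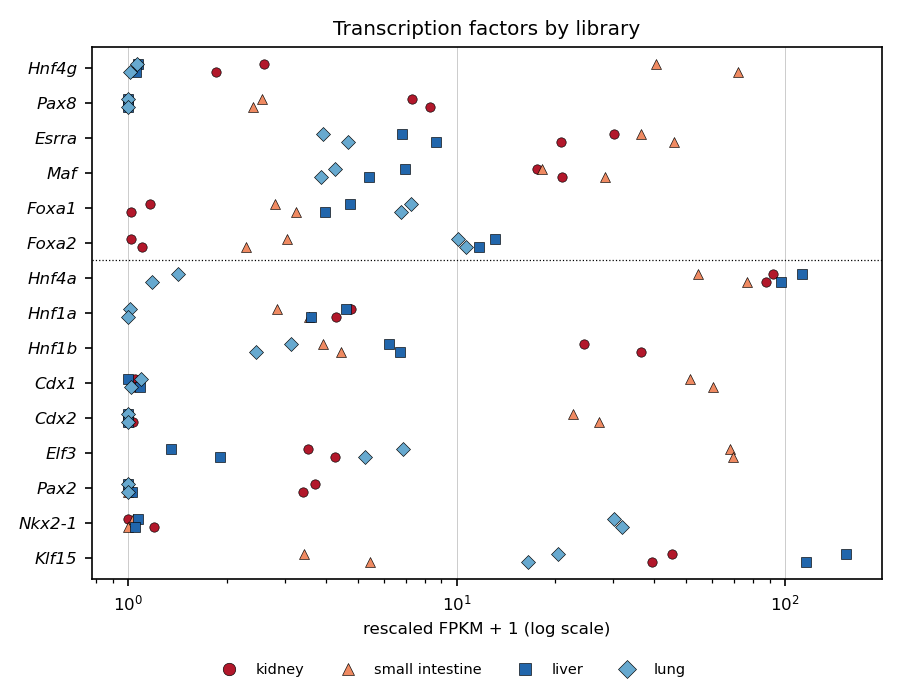
Rescaled FPKM plus 1 on a log axis in each library for 15 transcription factors, the 6 separated ones above the dotted line. Esrra and Maf have all red and orange points to the right of all blue ones, and Hnf4a has liver (111 and 96.1) above kidney and small intestine.

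Genes of oxidative phosphorylation were mostly called higher, and a minority of them were separated. Over all tested genes 10.4% were called higher and 6.25% separated in this direction, shares that stand beside each list of this paragraph. Of 33 nuclear-encoded genes 31 were called higher and 8 separated, at a median log2 difference of 1.29, with Atp5c1 at 301 and 405 in kidney, 328 and 332 in small intestine, 229 and 216 in liver and 57.9 and 55.7 in lung. With the tissue difference counted as spread, 0 of the 33 were called. Liver lay nearer to kidney and small intestine than to lung. The summed level of the list was 6291 and 9985 in kidney, 6559 and 5688 in small intestine, 5524 and 5056 in liver and 1241 and 1267 in lung. Mitochondrially encoded genes gave 7 of 13 called higher and 1 separated, but this count was not stable. It was 4 with the replicate number as a block, with quantile normalization or with a pseudocount of 0.1, and 2 with no filter on low values. The count was 9 on FPKM as deposited, with FPKM of 5 or more, with the filter on rescaled values or without a trend. It was 8 with libraries brought to the same sum without mitochondrially encoded genes, and 0 with the tissue difference counted as spread. Without 1 library it was 10 (kidney replicate 1), 7 (kidney replicate 2), 3 and 2 (small intestine replicates 1 and 2), 4 (either liver library) and 3 and 2 (lung replicates 1 and 2). Their summed level was 254469 and 210399 in liver, above the 144028 and 154895 in small intestine, with 212734 and 386681 in kidney and 37574 and 31734 in lung. For fructose use and glucose production 6 of 7 genes were called higher and none was separated. With the tissue difference counted as spread, 0 of the 7 were called higher. The summed level of this list was highest in liver, at 5521 and 4756, with 3614 and 4661 in kidney, 1924 and 1973 in small intestine and 23.8 and 13.5 in lung.

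Among the 12 genes with the widest gap on the side of liver and lung were Cyp2f2, Hp, Hc, Serpina3n, Igfbp2, C3, C4b, Lrg1, Pon1, Serping1 and Cp, with gaps from 6.69 to 2.11. Cyp2f2 (chromosome 7, 27119909 to 27133660), a cytochrome P450 of hepatocytes and club cells, was at 1.54 and 3.06 in kidney, 0.334 and 0.416 in small intestine, 829 and 646 in liver and 419 and 449 in lung. Haptoglobin (Hp, chromosome 8, 109575128 to 109579172), the plasma protein that binds free hemoglobin, was at 1.01 and 3.05 in kidney, 1.69 and 0.997 in small intestine, 2141 and 1911 in liver and 306 and 277 in lung. Both were at 277 or more in every liver and lung library and at 3.06 or less in the others. Serpina3n, a secreted protease inhibitor, was at 212 and 137 in liver and 35.00 and 37.1 in lung and at most 1.06 in kidney and small intestine. Igfbp2, a carrier of insulin-like growth factors, was at 282 and 179 in liver and 50.2 and 61.7 in lung and at most 1.96. The median gap over the 910 genes was 0.229.

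Several of these leading genes belong to complement. Of 12 tested complement genes 7 were called lower in kidney and small intestine, none higher, and 6 were separated, at a median log2 difference of -2.60. Over all tested genes 9.08% were called lower and 5.57% separated with liver and lung high, shares that also stand beside the lists that follow. With the tissue difference counted as spread, 5 of the 12 were called lower. Hc (chromosome 2, 34983331 to 35061438), complement component 5, was at 0.06502 and 0.141 in kidney, 0.0618 and 0.0404 in small intestine, 97.7 and 100.4 in liver and 32.1 and 31.6 in lung. C3 (chromosome 17, 57203970 to 57228136), the central component, was at 1.73 and 2.98 in kidney, 5.93 and 5.098 in small intestine, 1252 and 1066 in liver and 63.7 and 60.4 in lung. C4b was at 174 and 154 in liver and 22.5 and 20.8 in lung and at most 1.89 in kidney and small intestine. Serping1 (chromosome 2, 84765387 to 84775444), the inhibitor of the first component, was at 8.702 and 13.5 in kidney, 16.8 and 12.04 in small intestine, 382 and 302 in liver and 103 and 105 in lung. Liver exceeded lung in each of these genes, with liver minus lung differences from 1.61 (standard error 0.14, limma adjusted p = 4.20e-05) in Hc to 4.20 (standard error 0.22, limma adjusted p = 3.52e-06) in C3. Of 18 oxidases, hydrolases and other enzymes of xenobiotic metabolism 12 were called lower, 1 higher (the carboxylesterase Ces1f) and 4 separated, among them the aldehyde oxidase Aox3, at 0.116 and 0.149 in kidney, 0.0413 and 0.03596 in small intestine, 102 and 118 in liver and 6.47 and 7.83 in lung, and the epoxide hydrolase Ephx1, at 13.4 and 15.8 in kidney, 16.6 and 16.5 in small intestine, 328 and 259 in liver and 41.8 and 47.8 in lung. With the tissue difference counted as spread, 1 of these 18 was called lower and none higher. None of the 9 interferon-induced genes was separated or called by limma in either direction, while 5 had an unadjusted p under 0.05 and 5 an adjusted one, with smaller differences. Their median log2 difference was 0.165. Their sum was highest in small intestine, at 94.6 and 122, with 25.5 and 29.5 in kidney, 44.7 and 43.5 in liver and 54.7 and 49.4 in lung.

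Genes of other cell types were often on this side as well. Of 12 macrophage genes 10 were called lower in kidney and small intestine and 5 were separated, beside 9.08% called lower and 5.57% separated over all tested genes, shares that also stand beside the lists that follow. Their summed level was 306 and 278 in liver, 149 and 114 in lung, 31.3 and 42.2 in kidney and 124 and 84.5 in small intestine. Of 9 endothelial genes 7 were called lower and 3 separated, with sums of 273 and 325 in lung, 48.4 and 39.7 in liver, 49.02 and 41.4 in kidney and 18.7 and 13.6 in small intestine. The macrophage sums of lung and small intestine overlapped, and so did the endothelial sums of liver and kidney. All 8 genes of scavenger and sinusoidal endothelium were called lower and 5 separated, such as the mannose receptor Mrc1 at 0.4405 and 0.353 in kidney, 1.06 and 1.09 in small intestine, 8.53 and 9.26 in liver and 5.68 and 4.39 in lung. In stroma 5 of 7 were lower (3 without liver replicate 2) and 2 separated, with Dcn, a matrix proteoglycan, at 5.27 and 5.97 in kidney, 16.3 and 17.5 in small intestine, 49.6 and 49.97 in liver and 50.5 and 41.9 in lung. Erythroid genes were lower in 5 of 5 cases, with a sum of 10570.4 and 13106 in lung, 1314 and 1244 in liver, 842 and 3352 in kidney and 296 and 95.3 in small intestine, so that kidney replicate 2 exceeded liver. With the tissue difference counted as spread, 1 macrophage, 1 scavenger endothelial and 1 stromal gene were called lower, and no endothelial or erythroid gene. The part of these cells, and of the acinar and cardiac transcripts above, in the separated genes was not tested.

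The genes separated toward liver and lung were also compared within that side. By limma 6078 of all tested genes (37.2%) differed between liver and lung, and 321 of the 910 genes separated on their side (35.3%) did, 189 higher in liver (20.8%, beside 17.9% of all tested genes) and 132 in lung (14.5%, beside 19.4%). The reference share depends on the scaling, since 10236 of the 16328 genes were called between liver and lung on FPKM as deposited. The lower tissue of the high side had under 10% of the level of the other in 122 of the 910 genes (13.4%) and under 1% in 41 (4.51%), shares that were 21.3% and 9.47% over all tested genes. The latter included Scgb1a1, the secretory protein of club cells, at 22.5 and 72.8 in kidney, 16.9 and 25.9 in small intestine, 103 and 95.3 in liver and 24320.2 and 31458 in lung, and Sftpc, the surfactant protein of alveolar type 2 cells, at 4.07 and 17.6 in kidney, 3.84 and 4.65 in small intestine, 23.9 and 26.1 in liver and 7401 and 6092 in lung. Both met the rule at a liver level of less than 1% of that of lung, and kidney replicate 2 was the highest of the kidney and small intestine libraries. Apoe, an apolipoprotein with a large excess of liver over lung, was at 52.2 and 81.2 in kidney, 130.4 and 91.3 in small intestine, 12422 and 10063 in liver and 211 and 183 in lung.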

How the data were processed

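Polyadenylated RNA of kidney, small intestine, liver and lung was sequenced in 2 libraries per tissue. Reads were selected by their sample index with bbduk and aligned with STAR 2.5.3a to GRCm38, and the authors deposited FPKM values per gene, made with the fpkm function of DESeq2 on an Ensembl annotation. The counting program, its strand setting and its treatment of reads with several matches are not given in the sources used here. Coordinates are those of GENCODE M21 on GRCm38, which held 51847 of the 52195 symbols (99.3%).

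Deposited FPKM were divided by median-of-ratios factors between 0.552 and 1.90. Genes with deposited FPKM of 1 or more in 2 or more libraries were kept. Values were analysed as log2(rescaled FPKM + 1), which understates changes of low genes, with limma 3.58.1 in R 4.3.3 (lmFit and eBayes with trend, tissue as a factor of 4 levels, Benjamini-Hochberg over all 16328 genes), after a check on simulated data. Relative depth was read from the steps of the low values, of which 94.6% to 96.2% per library were whole numbers of reads within 0.02, and intervals from it cover counting error only.

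The members, the gene lists and the tests were chosen with earlier results of these data known. A few genes that meet the rule for naming are not reported here. Genes named in the text were the 12 widest gaps on each side at a level of 10 or more, the extremes of kidney minus small intestine and of liver minus lung, list members, and genes at the edge of the rule. Alternatives were other scalings, pseudocount and filters, single libraries left out, the replicate number as a block, no trend, and the side as the only factor. The filter on rescaled values, the replicate transfer on deposited values and the single libraries left out within a side were added after seeing the data. Motif shares between gene sets, also at a gap of at least 1, are not given because the promoter table covers too few genes.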

Additional observations from a re-analysis of the deposited data

Results flagged for a closer look

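The groups of 4 libraries on each side were searched for a library that stands apart, for 118 genes named in the text. A gap to the nearest library above Dixon's 95% critical value for 4 libraries, as a share of the group's range, was found in 7 of 236 groups. For draws from 1 population chance gives about 1 in 20, which is more than was found. Each group joined different tissues, so that rate does not strictly apply, and the flags are a description.

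Lung replicate 2 was the lowest of the liver and lung libraries in 4 genes. Guca2b was at 1.82 and 1.95 in liver and 1.62 and 0.341 in lung, a gap of 0.849 of the range, on 8, 11, 25 and 7 recovered reads. Slc7a9, at 0.295 and 0.346 in liver and 0.295 and 0.0633 in lung, had 0.836 on 4, 6, 14 and 4 reads, too few to resolve that gap. Slc5a1, at 1.59 and 1.47 in liver and 1.62 and 0.6401 in lung, had 0.87. Dcn was at 49.6 and 49.97 in liver and 50.5 and 41.9 in lung, with 0.904.

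Kidney replicate 2 was the highest of the kidney and small intestine libraries in 3 genes of the other side. Pon1 was at 0.0625 and 1.11 in kidney and 0.167 and 0.116 in small intestine, a gap of 0.863 of the range on 4, 40, 5 and 4 reads, Sftpc at 4.07 and 17.6 in kidney and 3.84 and 4.65 in small intestine, with 0.885, and Sftpa1 at 0.396 and 1.55 in kidney and 0.304 and 0.354 in small intestine, with 0.899. Kidney replicate 2 also had the higher hepatocyte marker sum of the kidney libraries, 225 against 87.1.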

How the results depend on the processing

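Of 2124 checks of 118 named genes under 18 alternatives, 2051 kept direction and side of the threshold, 73 lost the call and none reversed. With the side as the only factor 66 genes lost the call, and 197 genes were called higher, 126 lower and 34 of the 151 absorptive list genes higher. The other losses were those of Slc34a2, also without a filter on low values. A pseudocount of 0.1 gave 2482 genes called higher and 2605 lower. A gap of at least 1 left 169 and 119 separated genes, and FPKM of 5 or more left 594 separated with liver and lung high. On FPKM as deposited 10236 genes were called between liver and lung, and the median side difference shifted to -0.14. Without 1 library, genes called higher numbered 1616 to 1808 and lower 1438 to 1521, and separated genes 1100 to 1422 and 993 to 1237. Kidney against small intestine gave 4476 to 4960 calls, liver against lung 5791 to 6109, and the absorptive lists 122 to 126 called and 73 to 79 separated. Separated counts rise without a library because fewer values have to be in order.

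The replicate number as a block gave 1701 genes called higher and 1480 lower, and moved the mitochondrially encoded list from 7 to 4 calls. The correlations of same-numbered libraries' deviations between tissues lay between -0.217 and 0.027, which does not show that a number marks a mouse, although tissues share mice. Genes at a few reads cannot be resolved at this depth.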

Other observations

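Gene families were counted by the letters that begin the symbol, after the values were seen. Apart from Slc, a family of at least 8 tested genes was kept only if 25% or more of it was separated in 1 direction. The shares of the kept families thus lie above those of all tested genes by that choice. Carriers of the solute carrier class (symbols beginning Slc) were separated with kidney and small intestine high in 60 of 305 tested genes (19.7%) and with liver and lung high in 16 (5.25%), beside 6.25% and 5.57% of all tested genes. Of 10 aquaporins, the water and glycerol channels, 4 were separated on the side of kidney and small intestine. Aqp3 was at 44.4 and 46.5 in kidney, 13.1 and 7.79 in small intestine, 0 and 0.0844 in liver and 1.42 and 1.09 in lung, and Aqp7 at 3.43 and 3.61 in kidney, 4.58 and 4.26 in small intestine, 0 and 0.0546 in liver and 0.1197 and 0.0899 in lung. Also on that side were 4 of 15 carboxylesterases of the Ces symbol, all named Ces2, 8 of 23 Cox genes and 8 of 30 Vps genes, the latter of membrane traffic. On the side of liver and lung were 9 of 20 Serpina genes, most of them secreted protease inhibitors, 5 of 11 integrin alpha subunits and 7 of 25 Clec genes. Of the interferon-inducible families kept, 3 of 11 Gbp genes (27.3%) and 4 of 15 Ifi genes (26.7%) were separated with liver and lung high. The list of 9 interferon-induced genes given above had none separated and a median log2 difference of 0.165, so it did not follow that direction. Members of a family can share reads where their sequences are close, as in Serpina3 and Ces2, and how the study counted such reads is not given in the sources used here.

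Single genes outside the lists, also chosen after their values were seen, were the monoacylglycerol acyltransferase Mogat2, at 10.4 and 16.6 in kidney, 205 and 237 in small intestine, 0.646 and 0.421 in liver and 0.3995 and 0.115 in lung, and the dipeptidases Cndp2, at 402 and 757 in kidney, 218 and 349.9 in small intestine, 23.6 and 21.8 in liver and 21.5 and 20.2 in lung, and Pepd, at 80.7 and 131 in kidney, 134 and 188 in small intestine, 21.7 and 20.2 in liver and 8.91 and 8.32 in lung. Slc28a1, a nucleoside carrier, was at 4.14 and 4.41 in kidney, 41.6 and 32.01 in small intestine, 0.134 and 0.0523 in liver and 0.0191 and 0 in lung. On the other side were Itih4, a plasma protein made by liver, at 0.1104 and 0.457 in kidney, 0.0786 and 0.0457 in small intestine, 439.6 and 368 in liver and 6.85 and 6.26 in lung, and Lbp, which binds lipopolysaccharide, at 0.506 and 0.266 in kidney, 0.3805 and 0.454 in small intestine, 30.2 and 21.8 in liver and 8.84 and 6.24 in lung.

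Lists not described above were those of neutrophils, with 3 of 6 tested genes called lower in kidney and small intestine, T cells with 1 of 6, B and plasma cells with 4 of 6, and cardiac muscle with 5 of 6, beside 9.08% of all tested genes. The B and plasma cell genes summed to 570.1 and 318 in small intestine, 547 and 409 in lung, 12.97 and 15.3 in kidney and 8.31 and 6.16 in liver, so their sum did not follow the sides. Of the identity markers, all 5 of proximal tubule and all 5 of enterocytes were called higher, all 5 of hepatocytes lower, and of 5 for alveolar type 2 cells 4 lower and 1 higher (Napsa). Smooth muscle genes were called higher in 3 of 5 cases, but in 0 on FPKM as deposited and 0 with libraries brought to the same sum without mitochondrially encoded genes, and acinar genes were called higher in 8 of 8, beside 10.4% of all tested genes. By limma none of 3 adipocyte genes was called, 1 of them at an unadjusted p under 0.05, and the adrenal gene Star was neither called nor under that p.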
